A study of Mus musculus with 6 samples.

Results

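The 8 genes described here encode the enzymes that write, copy and erase DNA methylation and the isocitrate dehydrogenases that feed the erasers: Dnmt1, Dnmt3a, Dnmt3b, Tet1, Tet2, Tet3, Idh1 and Idh2. They were chosen by symbol, as the genes often mutated together with SRSF2 in human myeloid disease (TET2, IDH2 and DNMT3A) and their paralogs. No measured value entered this rule, though earlier results of these data were known when they were chosen. All 8 were found once each among the 26027 genes of the count table, and all 8 passed the filter on low counts. The cells were Lin-/cKit+/eYFP+ bone marrow cells, a population of immature blood progenitors, from tamoxifen-treated C57BL/6 mice. Every mouse carried hScl-CreERT, a tamoxifen-activated Cre recombinase under human Scl regulatory elements that are active in blood stem and progenitor cells, and R26eYFP, a reporter of recombined cells. One group was Srsf2 P95H/+ (3 libraries), in which 1 allele of the splicing factor gene Srsf2 carries the P95H substitution, and the other was Srsf2 +/+ (wild type, 3 libraries). Wild type comprised 1 female of 54 weeks (replicate 1) and males of 32 weeks (replicates 2 and 3), and P95H/+ comprised females of 32 weeks (replicates 1 and 2) and 1 male of that age (replicate 3).

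Dnmt3a and Dnmt3b place methyl groups on unmethylated CpG sites, and Dnmt1 copies the pattern onto the new strand when DNA is replicated. The Tet proteins oxidise 5-methylcytosine to 5-hydroxymethylcytosine and further products, the first steps of demethylation, and need 2-oxoglutarate, iron and oxygen to do so. Idh1 in the cytosol and Idh2 in mitochondria make 2-oxoglutarate from isocitrate, and the mutant enzymes found in leukaemia make 2-hydroxyglutarate, which inhibits Tet enzymes. In blood stem cells, loss of Dnmt3a or Tet2 is known to favour self-renewal.

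The libraries held between 10747941 and 23010510 counts, with the lowest total in P95H/+ replicate 3. Kit stood at 476 to 548 CPM (a gene's counts over the library total, times 1000000) in the 6 libraries and Ptprc, the pan-leukocyte CD45 gene, at 169.6 to 468 CPM. The 7 T and NK cell markers summed to 5.52 to 14.2 CPM in wild type and 3.32 to 6.23 CPM in P95H/+, and the defining T cell gene Cd3e stayed at or below 0.348 CPM. Late neutrophil markers (Ltf, Camp, Ngp, S100a8, S100a9, Ly6g and Mmp8) summed to 271 to 832 CPM in wild type and 302 to 1315 CPM in P95H/+, with the highest sum in P95H/+ replicate 3. That library also had the highest sums of B cell markers (116 CPM against at most 83.9 CPM elsewhere) and megakaryocyte markers (236 against at most 181 CPM). Not every marker followed these sums. S100a8, S100a9, Cd79b and Ms4a1 lay within the range of the other libraries, while the remaining late neutrophil and B cell markers were highest there. Itga2b made up most of the megakaryocyte sum, at 202 CPM. Gp1ba and Ppbp were also highest in P95H/+ replicate 3, but Pf4 was at its lowest (19.9 CPM). Of erythroid genes, Slc4a1 stood at 220 CPM there against 19.8 to 64.3 CPM elsewhere and Epb42 at 13.4 against at most 9.26 CPM, while Hemgn (31.1 CPM) and Rhd (47.5 CPM) lay within the range of the others. Macrophage markers summed to 32.8 to 69.3 CPM in wild type and 41.7 to 112 CPM in P95H/+, and stromal and endothelial markers to 103 to 152 and 122 to 155 CPM. Single genes made up most of these sums. Vcam1 reached 98.2 CPM in P95H/+ replicate 1, while C1qa, C1qb and C1qc stayed at or below 1.52 CPM. Pecam1 stood at 101 to 146 CPM, while Lepr, Col1a1 and Cdh5 stayed under 1 CPM in every library. Of these lists, 0 markers were at 0 in all libraries. The part that these other cells had in the values below was not tested. In sorted bulk cells, fewer cells of a type and less RNA per cell cannot be told apart. The replicate 3 libraries of both genotypes also differed from the others with the GC content of transcripts, as described below. Whether each replicate was a mouse of its own is not stated. Sex differs within each genotype, so each holds cells of more than 1 mouse. Libraries of the same genotype, sex and age could share 1 mouse, so p-values may reflect technical spread in part.

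No member passed the test of P95H/+ against wild type. Of the 8 genes, 0 passed edgeR's quasi-likelihood F test at an adjusted p of 0.05, and each had an adjusted p of 1. The same held for all 17144 genes tested, of which 0 (0%) passed, 361 had an unadjusted p under 0.05, and DESeq2 called 8 and limma voom 0, none of them members. Among the members 0 had an unadjusted p under 0.05 in any of the 3 tests. Fitted log2 fold changes were positive for 6 members and negative for Tet1 and Idh2, and ran from -0.11 for Tet1 to 0.25 for Dnmt1. The 95% intervals were wide: the narrowest, for Dnmt3a, went from -0.35 to 0.55, and the widest, for Idh1, from -0.75 to 0.91. These libraries do not exclude differences inside these intervals, which are not adjusted for the number of genes, and the missing calls do not show equal levels. Counting error was smaller than the spread over all 6 libraries, which was at least 1.25-fold for each member. Within a genotype this does not hold for every gene. In wild type the SD of Dnmt3b was 0.705 on a mean of 64.6 CPM, less than its counting error of at least 2.59%. The lowest member count in a library was 481, for Idh1 in P95H/+ replicate 3, for which counting error alone is 4.56%, while Idh1 varied 2.49-fold between libraries.

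**Figure D1:**
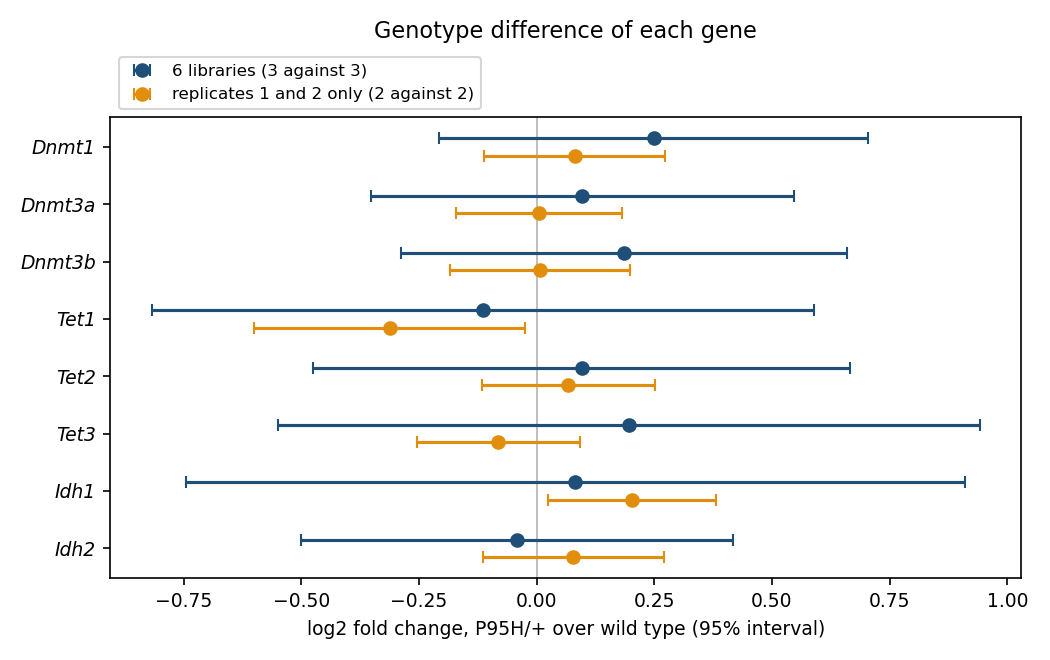
Log2 fold change of each gene, P95H/+ over wild type, from edgeR's quasi-likelihood fit with 95% intervals (not adjusted for the number of genes), for all 6 libraries and for replicates 1 and 2 only. All 8 intervals of the 6-library fit include 0, and in the 4-library fit those of Tet1 and Idh1 do not, although neither gene passed after adjustment.

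Dnmt1, the maintenance methyltransferase, was the only member whose groups did not overlap. It stood at 659, 674 and 668 CPM in replicates 1, 2 and 3 of wild type and at 694, 686 and 871 CPM in P95H/+ replicates 1, 2 and 3. Every P95H/+ library lay above every wild-type library, but replicates 1 and 2 by little, and P95H/+ replicate 3 stood far above the rest. The P95H/+ mean was 750.4 ± 104 and the wild-type mean 667 ± 7.26 CPM (SD, n = 3 per genotype), and the fitted log2 fold change was 0.25 (SE 0.20), or 0.10 without P95H/+ replicate 3. One such gene among 8 compares with 7.84% of all tested genes, so that the count of members without overlap was close to the background. Dnmt1 (ENSMUSG00000004099) is a protein-coding gene on mm10 chromosome 9 at 20907209 to 20959888, minus strand.

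Of the de novo methyltransferases, Dnmt3a differed little between libraries, while Dnmt3b was higher in P95H/+ replicate 3. Dnmt3a stood at 145, 136 and 158 CPM in replicates 1, 2 and 3 of wild type and at 135, 141 and 168 CPM in those of P95H/+. The groups overlapped, and the replicate 3 library was the highest of each. The P95H/+ mean was 148 ± 18 and the wild-type mean 146 ± 11.3 CPM (SD, n = 3 per genotype), with 0.10 (SE 0.19) as the log2 fold change. Dnmt3a had the smallest spread of the 8 genes, 1.25-fold between its lowest and highest library. Dnmt3b stood at 63.8, 64.6 and 65.3 CPM in wild type and at 60.5, 65.8 and 82.2 CPM in P95H/+. The P95H/+ libraries held both the lowest and the highest value, 1.36-fold apart, and the log2 fold change was 0.19 (SE 0.20). Dnmt3a (ENSMUSG00000020661) lies on mm10 chromosome 12 at 3806007 to 3914443, plus strand, and Dnmt3b (ENSMUSG00000027478) on chromosome 2 at 153649450 to 153687730, plus strand. Dnmt3aos and Dnmt3bos are annotated on the opposite strands of these genes, and as the sources used here do not say whether counting used the strand, reads may be shared with them.

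The coding sequences of the pair show how alike these paralogs are, and how the same residues can be coded with a different base composition. The longest stretch that both genes translate alike, codons 712 to 731 of Dnmt3a and 664 to 683 of Dnmt3b, is printed from the GENCODE M21 transcripts (mm10), with the bases that differ between the paralogs in capitals.
Dnmt3a: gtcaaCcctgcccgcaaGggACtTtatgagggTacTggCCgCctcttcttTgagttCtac
Dnmt3b: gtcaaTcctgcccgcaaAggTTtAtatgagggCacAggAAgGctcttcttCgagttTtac
Of these 60 bases 12 differ, 10 of them at the third position of a codon, and the GC content of the stretch is 55% in Dnmt3a and 48.3% in Dnmt3b.

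Of the Tet dioxygenases, Tet2 is the member most often mutated in human myeloid disease. Tet2 stood at 205, 185 and 136 CPM in replicates 1, 2 and 3 of wild type and at 192, 208 and 136 CPM in P95H/+ replicates 1, 2 and 3. The same pattern was seen in both genotypes, with replicate 3 low. The P95H/+ mean was 179 ± 37.6 and the wild-type mean 175 ± 35.5 CPM (SD, n = 3 per genotype), with 0.10 (SE 0.24) as the log2 fold change. Between genotypes Tet2 differed by 0.04 on the log2 CPM scale in replicates 1 and 2 and by 0.004 in replicate 3. On library totals this was the smallest replicate 3 difference of the 8 genes. After the correction for GC content described below, the Tet2 differences were 0.10 and 0.25, and Dnmt3a had a smaller one in replicate 3 (0.09). Tet2 (ENSMUSG00000040943) lies on mm10 chromosome 3 at 133463679 to 133545139, minus strand, with Gm42567 annotated on the other strand.

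Tet3 went the other way in the replicate 3 libraries. It stood at 270.5, 277 and 370.3 CPM in wild type and at 245, 261 and 483 CPM in P95H/+. Replicate 3 was the highest library of each genotype, and P95H/+ held both the lowest and the highest value. The log2 fold change was 0.20 (SE 0.32) with all 6 libraries and -0.08 (SE 0.08) with replicates 1 and 2 only, so that its sign rests on the replicate 3 libraries. Tet3 (ENSMUSG00000034832) lies on mm10 chromosome 6 at 83362373 to 83459084, minus strand, with B230319C09Rik annotated on the other strand.

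Tet1, the Tet gene with the lowest level in these cells, had its highest level in wild-type replicate 1, the library from the mouse of 54 weeks. It stood at 85.5, 67.1 and 39.7 CPM in wild type and at 54.6, 65.8 and 49.0 CPM in P95H/+. The wild-type libraries thus spanned the P95H/+ libraries on both sides. The log2 fold change was -0.11 (SE 0.30) with all 6 libraries and 0.14 without wild-type replicate 1. With replicates 1 and 2 only it was -0.31 (SE 0.13), at an edgeR adjusted p of 0.291. There the P95H/+ values of 54.6 and 65.8 CPM lay below both wild-type values, the nearer one by little. Tet1 (ENSMUSG00000047146) lies on mm10 chromosome 10 at 62804570 to 62908996, minus strand, with no annotated gene on the other strand.

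Tet2 and Tet3 code their longest shared stretch with different base compositions. It covers codons 1080 to 1103 of Tet2 and 870 to 893 of Tet3, again with differing bases in capitals.
Tet2: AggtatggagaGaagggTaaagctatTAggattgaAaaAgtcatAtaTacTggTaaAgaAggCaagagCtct
Tet3: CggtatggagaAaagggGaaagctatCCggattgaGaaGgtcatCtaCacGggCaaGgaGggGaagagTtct
Of the 72 bases 15 differ, 13 at the third position of a codon, and the stretch holds 37.5% GC in Tet2 and 51.4% in Tet3. The longest stretch shared by Tet1 and Tet3 differs less, with 53.3% GC in Tet1 and 56.7% in Tet3. Over the whole coding sequence the GC content is 48.2% in Tet2, 59.8% in Tet3 and 48.9% in Tet1. Whether the composition of these stretches bears on the replicate 3 values was not tested.

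The isocitrate dehydrogenases also split by replicate. Idh1, the cytosolic enzyme, stood at 95.1, 96.9 and 65.6 CPM in replicates 1, 2 and 3 of wild type and at 105, 111 and 44.8 CPM in P95H/+ replicates 1, 2 and 3. Replicate 3 was the lowest library of each genotype. P95H/+ lay above wild type in replicates 1 and 2, below it in replicate 3, and the log2 fold change over all libraries was 0.08 (SE 0.35). With replicates 1 and 2 only it was 0.20 (SE 0.08), with an edgeR adjusted p of 0.269. Idh2, the mitochondrial enzyme, stood at 222, 245 and 314 CPM in wild type and at 234, 249 and 237 CPM in P95H/+. All 3 P95H/+ values lay within the range of the wild-type libraries, where replicate 3 was high, and the log2 fold change was -0.04 (SE 0.20). For Idh2 the P95H/+ mean was 240.2 ± 8.19 and the wild-type mean 261 ± 48.1 CPM, and for Idh1 they were 87.1 ± 36.8 and 85.9 ± 17.6 CPM (SD, n = 3 per genotype). Idh1 (ENSMUSG00000025950) lies on mm10 chromosome 1 at 65158616 to 65186500 and Idh2 (ENSMUSG00000030541) on chromosome 7 at 80094846 to 80115392, both on the minus strand and without an annotated gene on the other strand.

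The longest stretch that Idh1 and Idh2 translate alike covers codons 91 to 110 of Idh1 and 131 to 150 of Idh2. It is shown because it holds codon 140 of Idh2, an arginine codon that is a known site of IDH2 mutation in human myeloid disease, and the matching arginine codon 100 of Idh1, each the tenth codon printed. Counts per gene do not show the bases that these cells carry there, and the sequences are those of the reference.
Idh1: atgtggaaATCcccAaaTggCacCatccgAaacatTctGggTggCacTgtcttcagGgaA
Idh2: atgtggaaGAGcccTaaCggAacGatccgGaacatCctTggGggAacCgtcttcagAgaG
Of the 60 bases 15 differ, in capitals, 13 of them at the third position of a codon. The coding sequence as a whole has a GC content of 46.2% in Idh1 and 56.1% in Idh2, and at the third position of a codon 52.5% and 73.7%.

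**Figure D2:**
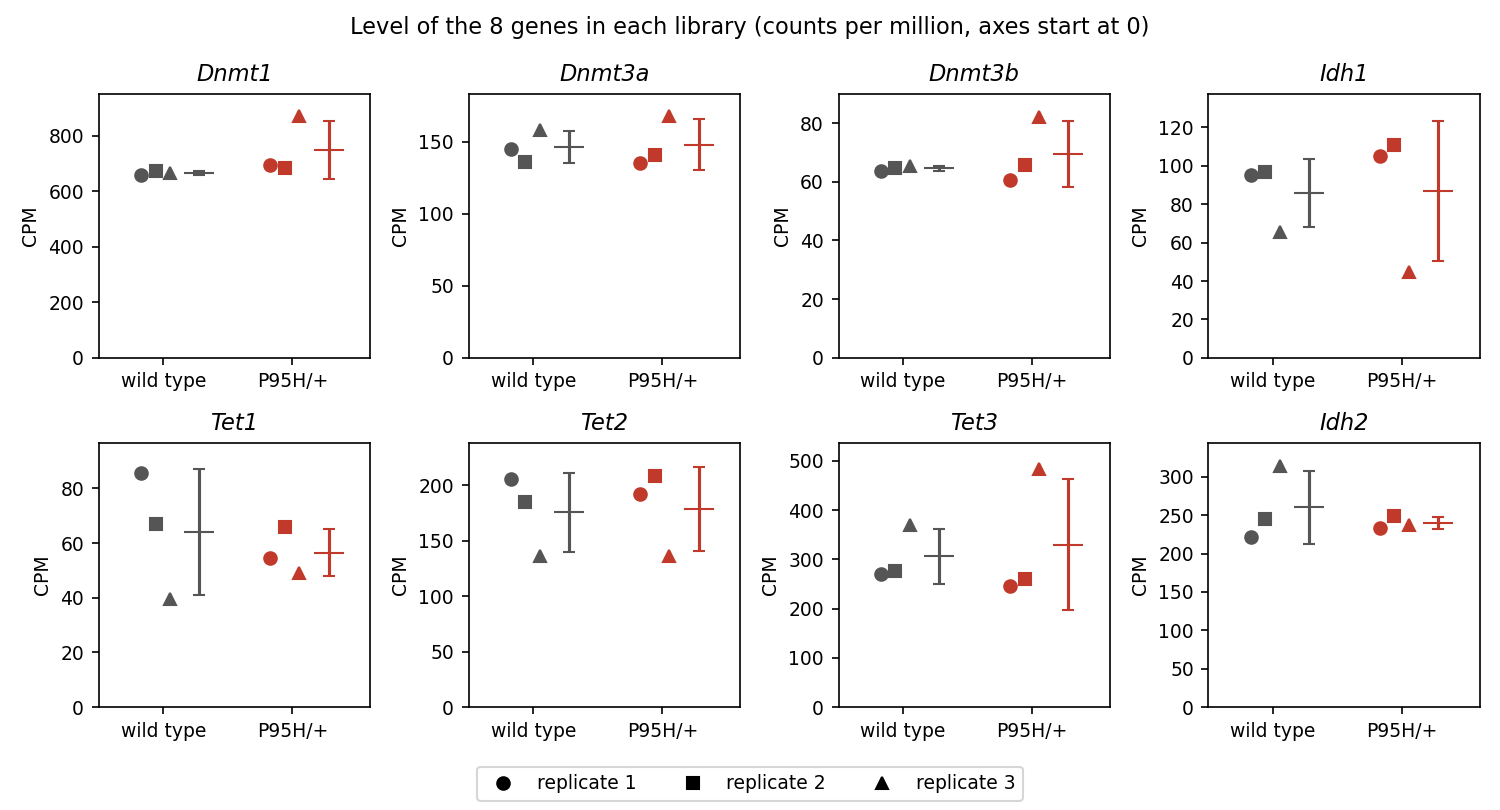
Level of each gene in CPM in the 3 wild-type (grey) and 3 P95H/+ (red) libraries, with symbols for the replicate number and bars for the mean and SD of each group. Replicate 3 (triangles) is the lowest library of both genotypes for Idh1, Tet1 and Tet2 and the highest of both for Tet3, Dnmt3a and Dnmt3b, and Dnmt1 is the only gene whose groups do not overlap.

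For Tet2, Tet3, Idh1 and Dnmt3a, each replicate 3 library lay farther from the others of its genotype than replicates 1 and 2 of both genotypes lay from each other. Relative to replicates 1 and 2 of the same genotype, Tet2 was lower in replicate 3 by a log2 difference of -0.52 in wild type and -0.55 in P95H/+. Idh1 was lower by -0.55 and -1.27, and Tet1 by -0.93 and -0.29. Tet3 was higher in replicate 3, by 0.44 in wild type and 0.93 in P95H/+, and Dnmt3a by 0.175 and 0.29. Idh2 was higher by 0.43 in wild type and not in P95H/+, at -0.03, while Dnmt1 and Dnmt3b were close to 0 in wild type (0.003 and 0.02) and higher in P95H/+ (0.34 and 0.38). The genes that were lower in both replicate 3 libraries are those with the lowest mean GC content of their transcripts, 45.3% for Idh1, 45.5% for Tet2 and 49.0% for Tet1, and the other 5 lie between 52.9% for Dnmt3b and 57.2% for Tet3.

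The medians of all tested genes ran in the same order of GC content. The 4760 genes with 45 to 50% GC had a median replicate 3 difference of -0.21 in wild type and -0.39 in P95H/+, and the 3907 genes above 55% GC had 0.46 and 0.69. A correction of each library for its trend on GC content brought Tet2 to -0.09 in wild type and 0.06 in P95H/+, and Dnmt3a to -0.09 and -0.08. It left Tet1 at -0.79 in wild type and -0.01 in P95H/+, and Idh1 at -0.10 in wild type and -0.64 in P95H/+. Idh2 came to 0.07 in wild type. In P95H/+ Idh2 went to -0.56, from -0.03 on library totals and 0.04 with TMM scaling alone. Tet3 in P95H/+ came to 0.34 and Dnmt3b to 0.22. After the correction both Idh genes were thus low in P95H/+ replicate 3, and Tet1 in wild-type replicate 3. For Idh2 this held only after the correction. Each of these values rests on 1 library. P95H/+ replicate 3 also had the highest Slc4a1 level and the highest late neutrophil, B cell and megakaryocyte sums, though not of every marker in them. The part of these other cells was not tested.

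**Figure D3:**
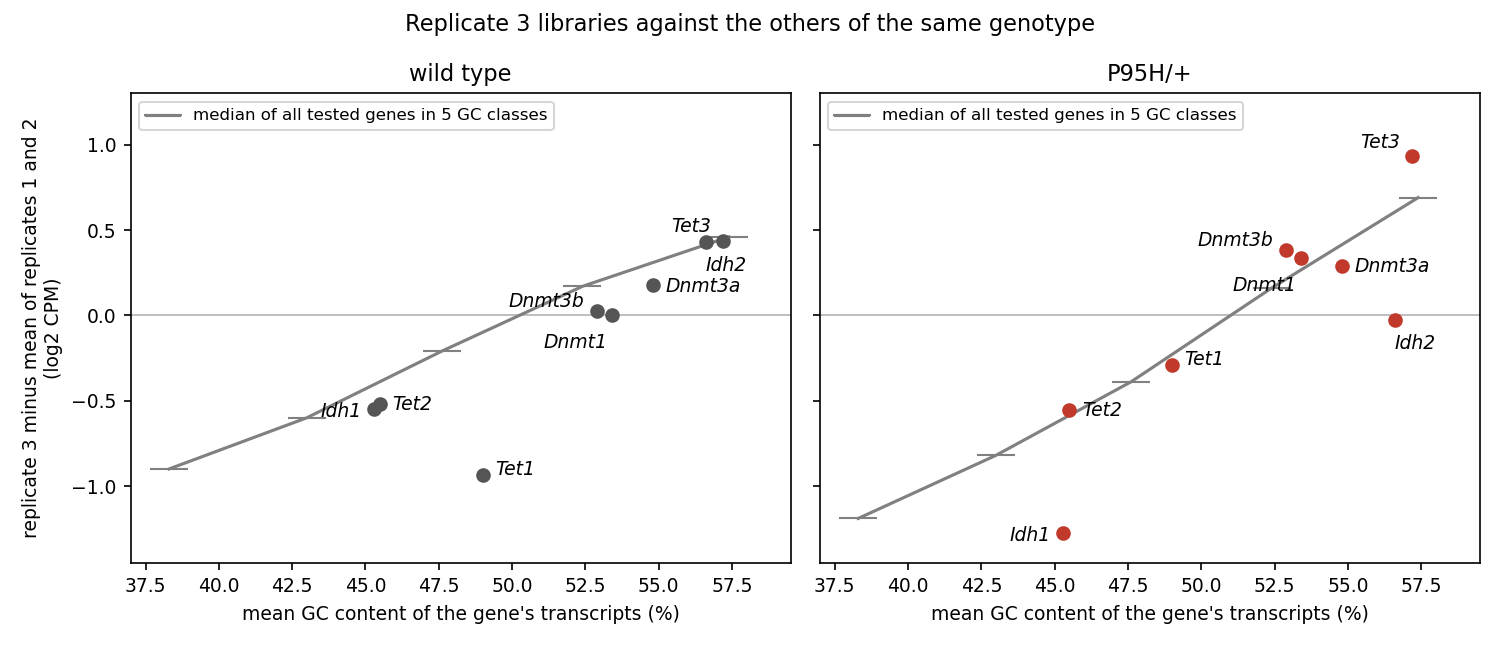
Difference in log2 CPM between replicate 3 and the mean of replicates 1 and 2 of the same genotype, against the mean GC content of each gene's transcripts, with the medians of all tested genes in 5 GC classes as a line. Idh1, Tet2 and Tet1 lie below 0 in both panels and Tet3 above it, and the genes farthest from the line are Tet1 in wild type and Idh1 and Idh2 in P95H/+.

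The genotype difference was therefore read within each set as well. In replicates 1 and 2 the log2 differences of P95H/+ from wild type ran from -0.34 for Tet1 to 0.17 for Idh1, with the other 6 between -0.11 and 0.05. In replicate 3 they were positive and between 0.31 and 0.38 for Dnmt1, Dnmt3b, Tet1 and Tet3, negative for Idh1 (-0.55) and Idh2 (-0.41), and near 0 for Dnmt3a (0.09) and Tet2 (0.004). Tet1, Tet3, Idh1, Idh2, Dnmt3a and Dnmt3b had differences of opposite sign in the 2 sets, and with 1 library a genotype in replicate 3 the change between sets was not tested. These signs are those on library totals. On GC-corrected, TMM-scaled values only Tet1 (-0.28 and 0.505), Idh1 (0.24 and -0.305) and Idh2 (0.16 and -0.48) kept opposite signs, while Dnmt3a, Dnmt3b and Tet3 were positive in both sets. In the fit of replicates 1 and 2 only, 144 of 17371 genes (0.829%) passed edgeR's test and 0 of the 8 members did, with adjusted p from 0.269 for Idh1 to 0.984 for Dnmt3a. The groups of 2 libraries did not overlap for 4 members, higher in P95H/+ for Dnmt1 and Idh1 and lower for Tet1 and Tet3, against 48.1% of all genes tested there. The 95% intervals of that fit went from -0.17 to 0.18 for Dnmt3a, from -0.12 to 0.25 for Tet2 and from -0.11 to 0.27 for Idh2. They do not bound the effect of genotype alone, because sex and age differ between these groups. The wild-type libraries were from a female of 54 weeks and a male of 32 weeks, and the P95H/+ libraries from females of 32 weeks.

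Ratios between paralogs within a library do not depend on the library total. Per kilobase of merged exons, the level of Tet3 was 1.34 and 1.51 times that of Tet2 in wild-type replicates 1 and 2 and 1.29 and 1.27 times in those of P95H/+, but 2.76 and 3.58 times in replicate 3. The Idh2 to Idh1 ratio was 2.5, 2.71 and 5.13 in replicates 1, 2 and 3 of wild type and 2.38, 2.4 and 5.67 in those of P95H/+. Both ratios were higher in the replicate 3 libraries than in the other 4, and overlapped between genotypes. The methyltransferases kept closer proportions. Dnmt1 to Dnmt3b ran from 7.09 to 7.94, Dnmt1 to Dnmt3a from 9.53 to 11.7 and Dnmt3b to Dnmt3a from 1.35 to 1.59 over all 6 libraries. The P95H/+ and wild-type libraries overlapped in each of these ratios as well. These 3 genes lie close together in GC content, between 52.9% and 54.8%.

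**Figure D4:**
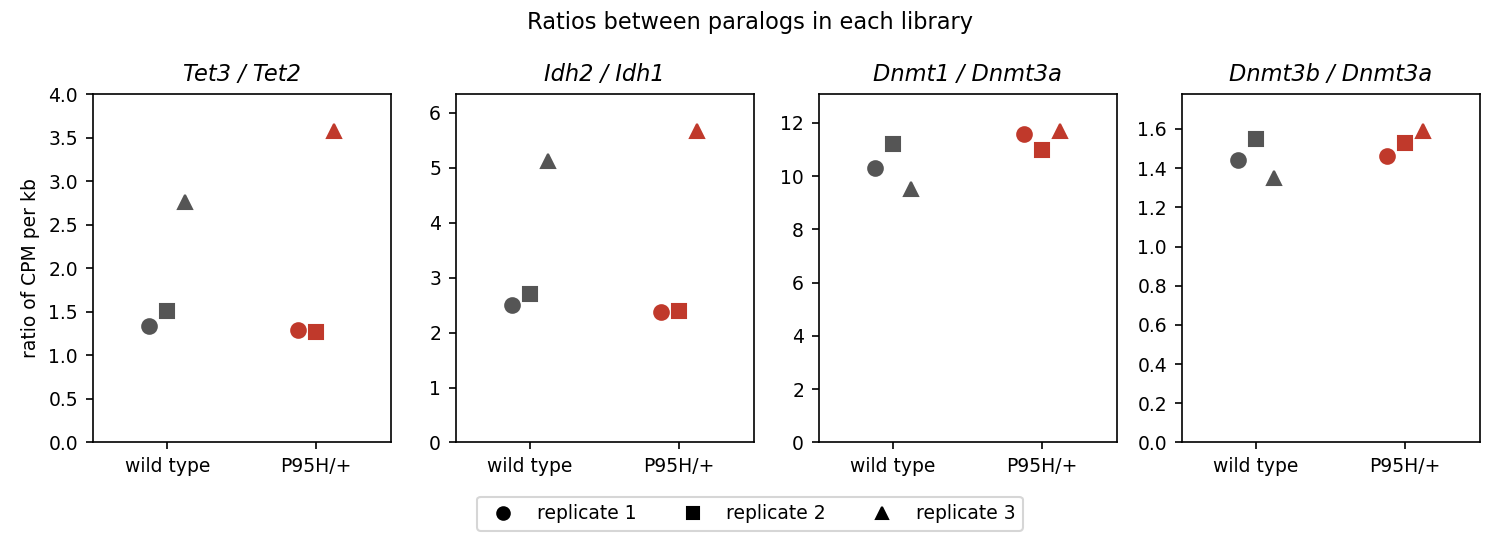
Ratio of CPM per kilobase of merged exons between paralogs in each library, on axes that start at 0, in wild type (grey) and P95H/+ (red), with symbols for the replicate number. Tet3 over Tet2 and Idh2 over Idh1 are highest in the replicate 3 libraries of both genotypes, while the ratios among the Dnmt genes stay within 1.22-fold.

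Levels of different genes were compared per kilobase of merged exons. Idh2 and Dnmt1 were the most abundant, at 96.8 ± 12.7 and 96.1 ± 10.9 CPM per kilobase (SD, n = 6 libraries), and were not separated, since Idh2 was above Dnmt1 in 3 of 6 libraries. Idh1 followed at 31.2 ± 9.31 and Tet3 at 19.0 ± 5.51, in this order in 5 of 6 libraries. Dnmt3b at 13.1 ± 1.5, Tet2 at 10.5 ± 1.94 and Dnmt3a at 8.84 ± 0.811 CPM per kilobase had ranges that overlapped from one to the next, although Dnmt3b was above Tet2 in 6 of 6 libraries. Tet1 was the lowest at 3.90 ± 1.04, below Dnmt3a in 6 of 6 libraries. The order of the middle genes depends on the length used. With the transcript of the longest coding sequence in place of all merged exons, Tet3, at 53.5, passed Idh1, at 37.9, and Tet2, at 19.6, passed Dnmt3b, at 18.5 CPM per kilobase, while Idh2, Dnmt1, Dnmt3a and Tet1 kept their ranks.

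Genes that act with these enzymes were read from 5 lists. In all of them 0 genes passed the test in either direction, with all 6 libraries and with replicates 1 and 2 only, beside 0% and 0.829% of all tested genes. Of 31 genes of isocitrate and 2-oxoglutarate metabolism, all tested, 29 had a positive fitted value, with a median log2 fold change of 0.17 beside 0.02 over all tested genes, of which 53.1% were positive. The median was 0.10 in replicates 1 and 2 and -0.01 in replicate 3 on the scale of library totals, on which the medians of all tested genes were -0.03 and -0.09. D2hgdh, which breaks down D-2-hydroxyglutarate, averaged 30.2 CPM in P95H/+ libraries against 22.9 CPM, and its log2 fold change was 0.48 (SE 0.28). Got2, the mitochondrial aspartate aminotransferase that interconverts glutamate and 2-oxoglutarate, averaged 246 against 208 CPM, with 0.32 (SE 0.20) as its log2 fold change.

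Of the 15 measured genes that supply S-adenosylmethionine, the methyl donor, 13 were positive, with a median fitted log2 fold change of 0.14. On library totals the median was 0.12 in replicates 1 and 2 and -0.10 in replicate 3. The medians of all tested genes on that scale were -0.03 and -0.09. Mthfd1, an enzyme of folate one-carbon metabolism, averaged 276 CPM in P95H/+ libraries against 213 CPM (log2 fold change 0.45, SE 0.24), and Mtr, methionine synthase, 148 against 138 CPM (0.18, SE 0.17). Among partners of the methyltransferases, 13 of 16 tested genes were positive, with a median fitted value of 0.13. On library totals the median was 0.05 in both sets. Lig1, the DNA ligase that joins Okazaki fragments, had a log2 fold change of 0.29 (SE 0.18). For Zfp57, which guards methylation at imprinted genes, it was -0.80 (SE 0.35), from averages of 0.619 CPM in P95H/+ libraries against 1.18 CPM.

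Readers of methylated CpG and genes of active demethylation had no common direction. Of 10 readers 6 were positive, with a median fitted value of 0.10. On library totals the median was -0.14 in replicates 1 and 2 and 0.22 in replicate 3. Mbd3 and Mbd6 had the highest fitted values, 0.38 each (SE 0.24 and 0.39). The fit of replicates 1 and 2 only gave 0.19 for Mbd3 and -0.09 for Mbd6. Of 17 tested genes of demethylation and base excision 7 were positive, with a median fitted value of -0.02. On library totals the median was -0.06 in both sets. Ogt, the O-GlcNAc transferase that binds Tet proteins, averaged 204 CPM in P95H/+ libraries against 252 CPM (log2 fold change -0.24, SE 0.19), and for Apobec1, a cytidine deaminase, the value was 0.27 (SE 0.21).

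**Figure D5:**
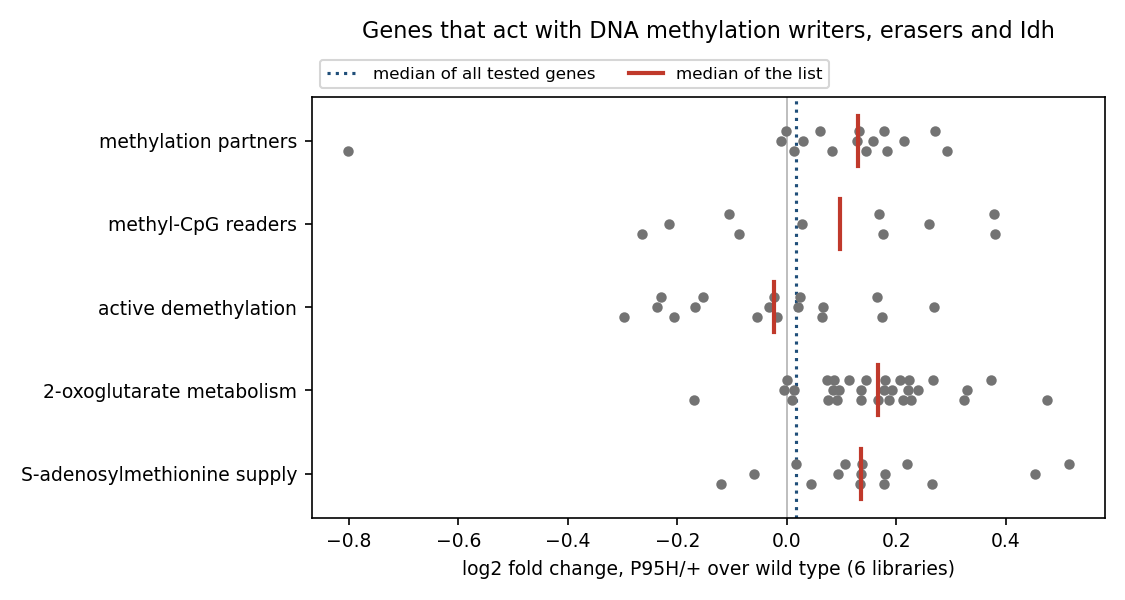
Fitted log2 fold change, P95H/+ over wild type with all 6 libraries, of each tested gene (points) in the 5 lists of genes that act with the 8 members, with the median of each list (red) and of all tested genes (dotted). List medians lie between -0.02 and 0.17, and 0 of the genes shown passed the test.

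The genes whose profile over the 6 libraries was most like that of a member were found among 10014 protein-coding genes with a mean of at least 5 CPM. Likeness was the root mean square distance between log2 CPM values, each gene centred on its own mean. For Tet2 these were Pabpn1, Fam35a and Zbtb44, at distances of 0.041, 0.042 and 0.043, where the median gene lay at 0.365. For Dnmt3a they were Fryl (0.022), Pisd (0.034) and Tapbpl (0.034), with a median gene at 0.300, and for Idh2 they were Hnrnpl (0.031), Wdr82 (0.034) and Zc3hc1 (0.035), with a median gene at 0.319. Zbtb44, for example, stood at 139, 128 and 97.4 CPM in wild type and 139.6, 139 and 97.2 CPM in P95H/+, low in replicate 3 as Tet2 was. Pabpn1 was low there too, at 29.9 CPM in wild type and 29.2 CPM in P95H/+. Its mean transcript GC content is 53.4%, against 45.5% for Tet2. Of the other members, Tet1 was nearest to Tet2 (0.194) and Dnmt3b to Dnmt3a (0.080).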

How the data were processed

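Per the labels, ribosome-depleted total RNA of the sorted cells went through a strand-marking library kit and paired-end sequencing. The submitters' processing notes name Trim Galore, cutadapt, STAR 2.5.3a, Picard 1.96, featureCounts, Subread 1.5.1, edgeR, limma and mm10, without roles or settings. The authors deposited raw counts per gene, and CPM tables that were used only as a check: CPM here are count over library total, which matched the deposited CPM of all genes within 0.0005.

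The main test of P95H/+ against wild type used edgeR 4.0.16 under R 4.3.3 (TMM, filterByExpr, robust quasi-likelihood F test, two-sided, Benjamini-Hochberg over all tested genes, threshold 0.05), with DESeq2 1.42.0 and limma 3.58.1 voom as alternatives. Scripts were tested on simulated data. SE follow from the F statistic. For the GC correction, gene deviations in each library were fitted on mean transcript GC content by natural splines (4 df). GC content was known for 99.6% of tested genes. Positions, lengths and sequences are from GENCODE M21. Deviations of same-numbered libraries from their group means correlated across genes at 0.372, 0.348 and 0.613. This meets the rule for pairing (each above 0.1), so a blocked fit was run. Wild-type replicate 1 with P95H/+ replicate 2 gave 0.463, and wild-type replicate 2 with P95H/+ replicate 1 gave 0.386. The rule thus cannot tell whether replicates 1 and 2 are paired by number. Named genes were the 8 members, the 2 of each list with the smallest p, and the 3 most alike for Dnmt3a, Tet2 and Idh2. Members and lists were chosen with earlier results of these data known. A marker gene of these lists is not reported here.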

Additional observations from a re-analysis of the deposited data

How the results depend on the processing

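Under all 16 alternatives 0 of the 8 members passed the test. With the replicate block, the count of genes called went from 0 to 1 and that of members stayed at 0, and the block changed no member's direction. Genes called were 8 with DESeq2, 1 with the replicate block and the GC offset together, 144 with replicates 1 and 2 only, and 0 to 1 when 1 library was left out, with 1 only without wild-type replicate 3. Dnmt1 and Dnmt3b kept a positive log2 fold change throughout (0.08 to 0.33 and 0.01 to 0.26). With sex in the model the log2 fold change turned to -0.050 for Tet2, -0.25 for Idh1 and 0.031 for Idh2. With replicates 1 and 2 only it turned to -0.081 for Tet3 and 0.078 for Idh2. Leaving out 1 library gave -0.031 to 0.15 for Dnmt3a, -0.37 to 0.14 for Tet1, -0.065 to 0.24 for Tet2, -0.22 to 0.36 for Tet3, -0.11 to 0.38 for Idh1 and -0.15 to 0.10 for Idh2. The causes were not tested. The difference between the genotype effect in replicate 3 and in replicates 1 and 2 was -0.46 for Idh2 on library totals, -0.35 with TMM scaling and -0.64 with TMM scaling and GC correction together. The GC-corrected values and the second gene length were chosen after seeing the data. Sex and age are not balanced between genotypes, and a single older library cannot separate age from that library.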
